A study of Mus musculus with 22 samples.

Results

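The Notch receptors and their ligands were followed across sorted motor neurons and endothelial cells of the embryonic mouse spinal cord. The members were the 4 receptor genes Notch1, Notch2, Notch3 and Notch4 and the 5 ligand genes Dll1, Dll3, Dll4, Jag1 and Jag2, taken by gene name from the count files. All 9 were present among the 55376 genes counted, and all 9 passed the filter on low counts in each comparison. The embryos were at E12.5. Motor neurons (MN) were sorted by an ISL1-fGFP reporter and endothelial cells (EC) by a Kdr-Cherry reporter. Both populations were sorted from cord plus meninges of wild-type embryos (2 usable endothelial and 3 motor neuron libraries) and of Plxnd1 knockout embryos (3 of each), here called the knockout series. Plxnd1 encodes plexin D1, a semaphorin receptor of vessels. A regional series of wild-type endothelial cells set the cord parenchyma (5 libraries) beside the meninges (5 libraries). The parenchyma of batches 1 to 3 was ventral cord and that of batches 4 and 5 was whole cord. Embryos were pooled by genotype, so a library is a pool and not an animal. Each population was selected by its reporter, and the libraries also held markers of other cell types, given below.

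Notch receptors are cell-surface proteins that are activated by ligands on a neighbouring cell. Ligand binding and endocytosis allow an ADAM protease and then gamma-secretase to cut the receptor, and the freed intracellular part enters the nucleus, where it joins RBPJ and Mastermind proteins to switch on genes of the Hes and Hey families. In growing vessels Dll4 in tip cells acts on Notch in the following stalk cells and limits sprouting, and Notch1, Notch4, Dll4 and Jag1 are known in arterial endothelium, whereas Notch3 is known from pericytes and smooth muscle. In the spinal cord Dll1 is made by cells leaving the progenitor zone, Dll3 is an intracellular member that does not activate the receptor on neighbours, and Jag2 is known in motor neurons.

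The 11 libraries with knockouts held 20680902 to 27035395 counts, and the 10 regional ones 15685784 to 21493255. The endothelial library labelled wild type, batch 2, carried the same value as knockout batch 1 in every one of the 55376 genes and was left out. Plxnd1 itself stood at 175 and 213 CPM (counts scaled to library size) in wild-type endothelial libraries and at 15.4 to 28.9 in knockout ones, and at 5.14 to 12.1 against 0.645 to 1.78 in motor neurons. Its fold change did not pass the main test across all genes in either cell type (log2 fold change -3.20 ± 0.26 SE, edgeR adjusted p = 0.161, and -2.97 ± 0.46, adjusted p = 0.8). It passed with batch as a block, at adjusted p = 5.5e-15 and 1.4e-04. The labels leave the deleted stretch of Plxnd1 unnamed, and reads of the remaining gene may be among its counts in knockout libraries. The labelled cell types were checked with marker lists. The summed level of 10 endothelial markers, Kdr being the highest, was 755 and 1165 CPM in wild-type endothelial libraries, 507.5 to 932 in knockout ones and 10.4 to 32.3 in motor neuron libraries. Endothelial libraries of the knockout series also held 6 fibroblast markers, led by Col1a2, at 8495 to 10287 CPM and 7 pericyte and smooth muscle markers, led by Pdgfrb, at 962 to 1571 CPM. In the same libraries 6 erythroid markers, led by Hbb-y, summed to 10227 to 22835 CPM, against 50.1 to 137.5 CPM in motor neuron libraries. The 5 macrophage markers summed to 545.4 to 704.5 CPM against 3.55 to 14.9 CPM. The part of these cells in the member levels was not tested. Motor neuron libraries held 6 motor neuron markers, led by Prph, at 466.3 to 1411 CPM, and 6 markers of spinal interneurons, led by Lhx1, at 1722 to 2653 CPM. Lhx1 is also made by some motor neurons, but Gad2, an enzyme of inhibitory neurons, was at 368 ± 23.8 CPM (SD, n = 3) in wild-type motor neuron libraries too. Knockout motor neuron batch 1 stood apart in 4 liver markers, led by Alb, which summed to 553 CPM there and to 0.501 to 2.07 CPM in the other 5 motor neuron libraries. Without it 8 of the 9 members still passed between knockout cell types, the exception being Dll1. The libraries are bulk samples, so fewer cells of a type and less RNA per cell cannot be told apart.

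The first comparison asked where receptors and ligands were made. All 4 receptors and the ligands Dll4 and Jag1 were higher in endothelial libraries than in motor neuron libraries, while Dll1 and Jag2 were lower. In the wild type, 6 of 9 members were higher, 2 were lower and Dll3 did not pass, against 64.8% of all genes tested (33.8% higher and 31% lower). In the knockout libraries the same contrast gave 6 higher and 3 lower, against 68.8% of genes (35.3% higher and 33.5% lower). The median log2 fold change of the 9 members was 2.96 in the wild type, beside 0.02 for all genes tested.

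**Figure D1:**
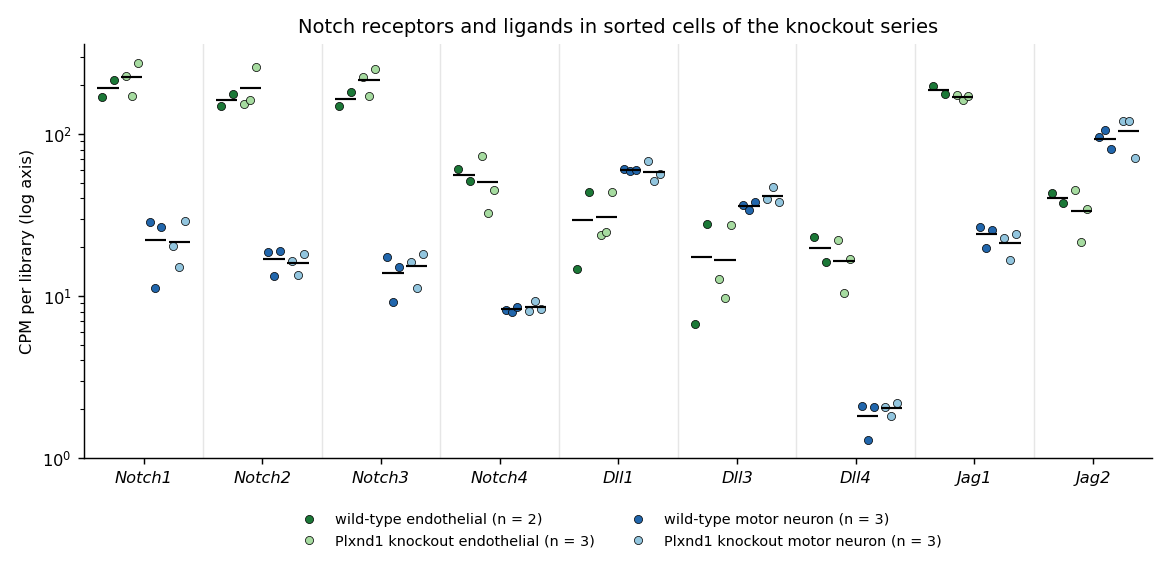
CPM of each Notch receptor and ligand in every library of the knockout series, on a log axis. Points are libraries, horizontal lines are group means, and the blue motor neuron points lie under the green endothelial points for the 4 receptors, Dll4 and Jag1 and above them for Dll1, Dll3 and Jag2. The share of all genes with cell types apart was not counted, and 64.8% were called between wild-type cell types in edgeR.

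Notch1, the receptor best known for arterial specification and for holding neural progenitors, was at 169.8 and 216 CPM in the 2 wild-type endothelial libraries. It was at 28.6, 11.2 and 26.8 CPM in the 3 wild-type motor neuron libraries. The groups did not overlap, and the log2 fold change was 3.12 ± 0.38 (SE, edgeR adjusted p = 3.8e-05). Notch2, a receptor known from mural cells and many progenitors, stood at 148 and 177 CPM in endothelial libraries against 18.7, 13.3 and 19.0 in motor neuron libraries. Here too every endothelial library was the higher one (3.26 ± 0.24, adjusted p = 1.3e-06). Fibroblast markers summed to 8495 and 8765 CPM in these endothelial libraries against 58.3 to 153.7 CPM in the motor neuron ones. The part of fibroblasts in the Notch2 level was not tested.

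Notch3, the receptor of pericytes and smooth muscle, was at 149.8 and 181 CPM in wild-type endothelial libraries. Its motor neuron values were 17.5, 9.22 and 15.2 CPM. This gap was the widest of the 9 members on the log2 scale (3.56 ± 0.28, edgeR adjusted p = 1.8e-06), and it lay beside a summed pericyte and smooth muscle level of 962 and 1436 CPM in the same endothelial libraries against 13.3 to 20.2 in the motor neuron ones. The part of mural cells in the Notch3 level was not tested. Notch4, which is known as the receptor restricted to endothelium, was at 60.8 and 51.4 CPM in endothelial libraries and at 8.19, 7.97 and 8.59 CPM in motor neuron libraries. Those 3 motor neuron values were close together and far under the endothelial ones (2.76 ± 0.27, adjusted p = 7.7e-06).

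Among the ligands, Dll4, the tip-cell and arterial ligand, was at 23.1 and 16.3 CPM in wild-type endothelial libraries. In motor neuron libraries it was at 2.09, 1.30 and 2.05 CPM. The groups were apart, with a log2 fold change of 3.43 ± 0.32 (edgeR adjusted p = 6.4e-06). An antisense gene overlaps 214 exonic bases of Dll4 and reached at most 3.95 CPM in any library. Its reads cannot be told apart from those of Dll4 in this series, which was counted without strand. Jag1, a ligand of endothelium and smooth muscle, was at 198 and 176 CPM against 26.7, 19.9 and 25.6 CPM. The groups were far apart, and it had the smallest standard error of the 9 (2.96 ± 0.16, adjusted p = 1.7e-07). The part of fibroblasts in the Jag1 level was not tested.

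Jag2 went the other way. It was at 43.4 and 37.4 CPM in endothelial libraries and at 95.4, 105 and 80.3 CPM in motor neuron libraries, with no overlap (log2 fold change -1.21 ± 0.31, edgeR adjusted p = 0.00545). In knockout libraries Jag2 was at 45.1, 21.4 and 34.4 CPM in endothelial cells against 121, 121 and 70.7 CPM in motor neurons (-1.63 ± 0.27, adjusted p = 3.2e-04).

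Dll1, the ligand of newly formed neurons, stood at 60.8, 59.5 and 59.5 CPM in wild-type motor neuron libraries. The 2 wild-type endothelial libraries were at 14.8 and 44.1 CPM, so that they differed more from each other than the motor neuron libraries did. The difference passed narrowly (-1.03 ± 0.40, edgeR adjusted p = 0.0421), and it no longer passed without endothelial batch 1 (-0.44, adjusted p = 0.28), in a fit of the 2 compared groups alone (-1.02, adjusted p = 0.0769), without any 1 of the 3 wild-type motor neuron libraries (adjusted p = 0.071 to 0.08), or without knockout motor neuron batch 2 or 3 (0.0512 and 0.0537). In the knockout libraries Dll1 was at 23.6, 24.9 and 43.9 CPM in endothelial cells and at 67.9, 50.9 and 56.8 CPM in motor neurons (-0.93 ± 0.35, adjusted p = 0.0345). There the call was lost without endothelial batch 1 (adjusted p = 0.115) or 2 (0.112), without wild-type motor neuron batch 1 (0.0509), or without knockout motor neuron batch 1 (0.094) or 3 (0.06). Reads of Dll1 and of A930024N18Rik, which lies antisense to 624 of its exonic bases, cannot be told apart in this series because it was counted without strand. Other genes also overlap exons of Notch1 (1378 bases), Notch2 (541 bases) and Notch3 (488 bases), at no more than 3.53 CPM in any library.

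Dll3 was at 36.2, 34.0 and 38.1 CPM in wild-type motor neuron libraries against 6.75 and 28.0 CPM in endothelial ones. The groups were apart but the endothelial pair was spread widely, and the difference did not pass (-1.05 ± 0.53, edgeR adjusted p = 0.105). It passed with batch as a block (-1.35 ± 0.48, adjusted p = 0.0324), a fit that called 66.8% of genes, and without endothelial batch 3 (-2.42, adjusted p = 0.00338). In the knockout libraries Dll3 was at 12.8, 9.68 and 27.6 CPM against 39.8, 46.9 and 37.9 CPM (-1.32 ± 0.47, adjusted p = 0.0274), a call lost without endothelial batch 1 (0.0908) or 2 (0.0973), or without knockout motor neuron batch 2 (0.0676). Endothelial batch 3 held the most Dll1 and Dll3 in both genotypes. The same libraries held the most of 5 pan-neuronal markers, led by Tubb3, at 754 and 657 CPM, beside 284 to 327 in the other 3 endothelial libraries. The part of neural cells in these ligand levels of the endothelial libraries was not tested. Motor neuron libraries held interneuron markers at 1722 to 2653 CPM beside motor neuron markers at 466.3 to 1411 CPM. The part of interneurons in the Jag2, Dll1 and Dll3 levels of the motor neuron libraries was not tested.

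**Figure D2:**
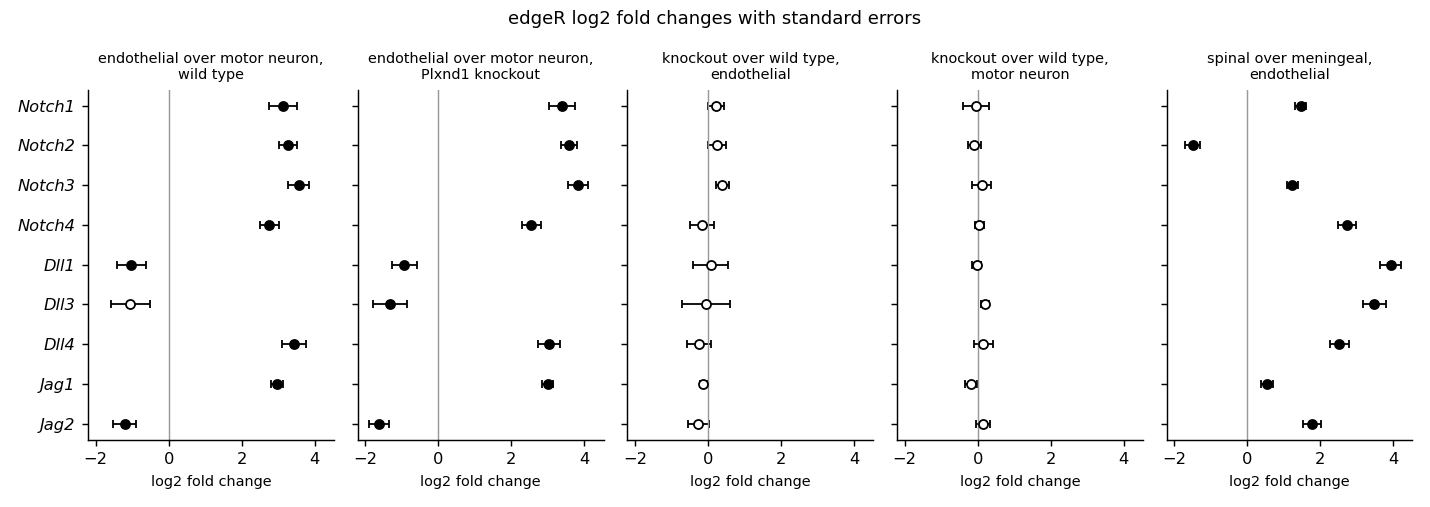
edgeR log2 fold changes of the 9 members in 5 comparisons, with horizontal bars of 1 standard error. Filled points passed an adjusted p of 0.05 and open points did not. No member passed in either knockout comparison, and Notch2 is the only member under 0 in the spinal against meningeal panel.

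Levels were compared between members per kilobase of exon. In wild-type endothelial libraries Jag1 led at 33.3 CPM per kb (mean, n = 2), followed by Notch3 at 20.6, Notch1 at 20.3 and Notch2 at 15.5, while Notch4 was at 8.50 and Dll4 at 5.26. In wild-type motor neuron libraries the order began with Jag2 at 18.3 CPM per kb, Dll1 at 16.7 and Dll3 at 13.8, and no receptor was above 2.34, the mean of Notch1. The 5 ligands together reached 5.88 to 11.3 times the sum of the 4 receptors in the 6 motor neuron libraries. In the endothelial libraries that ratio was 0.945 and 0.943 in the wild type and 0.702 to 0.777 in the knockout. Jag1 made up 54.9 ± 10.5% (SD, n = 2) of the ligand sum in wild-type endothelial libraries and 7.99 ± 1.25% (n = 3) in wild-type motor neuron libraries. The receptor shares lay closer together, with Notch1 at 31.2 ± 1.90% and 32.4 ± 6.85%. The part of fibroblasts in the Jag1 share was not tested.

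**Figure D3:**
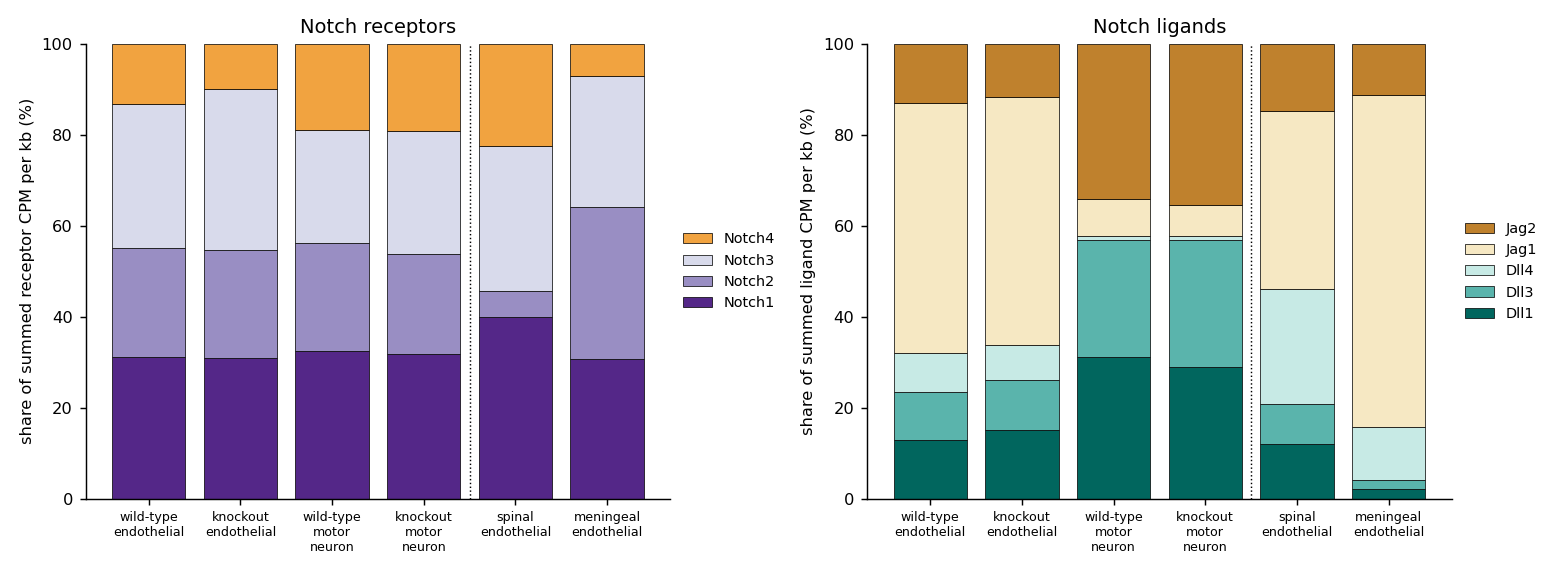
Share of each gene in the summed CPM per kb of the 4 receptors (left) and of the 5 ligands (right), as group means in percent. The dotted line parts the knockout series from the regional series. The series were counted with different settings, so shares are compared only within a series. In the regional series meningeal libraries have the higher Jag1 share (73.1%), and Notch2 is 5.57% of receptors in spinal against 33.5% in meningeal libraries. Motor neuron libraries have mostly Dll1, Dll3 and Jag2, with a smaller Jag1 share than the endothelial libraries of their series.

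The 52 other genes of the pathway were taken in 7 lists. In the wild type 25 were higher in endothelial libraries, 12 were lower and 15 did not pass, beside the 64.8% of all genes called. Of 6 target genes, 5 were higher. These were Heyl (log2 fold change 5.17 ± 0.35, edgeR adjusted p = 6.6e-07), Hes1 (4.94 ± 0.55), Hey2 (3.44 ± 0.27), Hes5 (1.53 ± 0.43) and Hey1 (0.50 ± 0.13), whereas Hes6, a Hes-family gene that promotes neuronal differentiation, was lower (-0.66 ± 0.17). Hes1 and Hes5, like Notch1, are also known from neural progenitors, and 7 neural progenitor markers, led by Fabp7 in the endothelial and Nes in the motor neuron libraries, summed to 631 and 1098 CPM in wild-type endothelial and 187 to 246 CPM in wild-type motor neuron libraries. The part of neural progenitors in these 3 differences was not tested. Heyl, a target known from mural cells, was at 228.6 ± 55.2 CPM (SD, n = 2) in endothelial and 6.33 ± 3.06 CPM (n = 3) in motor neuron libraries. Of 8 genes that put sugars on the receptors, 6 were higher, with Gxylt2 at 5.84 ± 0.17, Eogt at 3.04 ± 0.22, Lfng at 2.54 ± 0.45, Gxylt1 at 1.64 ± 0.10, Pofut1 at 1.49 ± 0.09 and Mfng at 1.04 ± 0.16, and Rfng was lower (-1.20 ± 0.14). Lfng is a fringe enzyme that alters which ligands a receptor answers to.

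Of 9 genes for receptor cleavage, 4 were higher, namely Adam17 (1.87 ± 0.11), Furin (1.18 ± 0.13), Adam10 (0.78 ± 0.13) and Psen2 (0.68 ± 0.20), and Aph1b was lower (-0.84 ± 0.18). Of 7 nuclear-complex genes, Maml1 (1.11 ± 0.10) and Maml2 (0.74 ± 0.15) were higher and Maml3 (-0.37 ± 0.13) and Ep300 (-0.31 ± 0.09) lower, while Rbpj, the DNA-binding partner of cut Notch, did not pass (-0.21 ± 0.24, edgeR adjusted p = 0.467). None of the 6 genes for ligand endocytosis was higher and Neurl1b was lower (-0.92 ± 0.31). Of 12 inhibitors and turnover genes, 6 were higher, among them Nrarp (2.36 ± 0.31), a feedback inhibitor that Notch itself induces, Hdac1 (1.43 ± 0.19), Numb (1.32 ± 0.10) and Dtx2 (0.52 ± 0.14). The 4 that were lower were Dtx1 (-2.22 ± 0.19), Spen (-0.77 ± 0.15), Fbxw7 (-0.72 ± 0.10) and Numbl (-0.42 ± 0.15). Among 4 ligand-like proteins, Egfl7, secreted by endothelium, was higher (5.01 ± 0.32), Dlk1 was higher (0.83 ± 0.24), and Dner (-3.38 ± 0.68) and Dlk2 (-3.88 ± 0.44) were lower.

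The second question was whether loss of Plxnd1 altered these genes. Without regard to batch, none of the 9 members passed in endothelial cells, where 0% of 18209 genes did. edgeR called 0 of all genes there, 431 had an unadjusted p under 0.05, and DESeq2 called 24 higher and 6 lower with no member among them. Plxnd1 itself, the deleted gene, did not pass this edgeR test either, so a member that did not pass cannot be called unchanged. The member fold changes ran from -0.26 to 0.39 on the log2 scale. Notch3 had the largest, at 149.8 and 181 CPM in wild-type libraries and at 225, 171 and 253 CPM in knockout ones (0.39 ± 0.18, edgeR adjusted p = 0.999). These ranges overlapped through knockout batch 2, the batch that has no wild-type partner.

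With batch as a block, which leaves the 2 pairs of batches 1 and 3, Notch3 (0.54 ± 0.09, edgeR adjusted p = 0.00159) and Notch1 (0.39 ± 0.09, adjusted p = 0.0304) were higher in the knockout. That fit called 0.989% of genes, 0.763% higher and 0.225% lower, and had 1 residual degree of freedom. Within batch, Notch3 was higher in 2 of 2 pairs, by 0.49 and 0.58 on the log2 scale, and Notch1 in 2 of 2, by 0.35 and 0.42. Notch2 did not pass (0.30 ± 0.11, adjusted p = 0.289), and Notch4 was near 0 (0.04 ± 0.11, adjusted p = 0.975). Pericyte and smooth muscle markers, the cells Notch3 is known from, stood at 1436 and 962 CPM in wild-type batches 1 and 3. They were at 1571 and 1127 CPM in knockout batches 1 and 3. The 10 endothelial markers summed to 1165 and 755 CPM in the same wild-type libraries and to 932 and 745 CPM in the knockout ones. Their median log2 fold change was -0.43 without the block, a value that also takes in knockout batch 2. The part of either cell type in the 2 receptor differences was not tested.

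For the ligands, Jag1 was at 198 and 176 CPM in wild-type endothelial libraries and at 175, 162 and 172 CPM in knockout ones. The groups all but touched, and the difference did not pass (-0.13 ± 0.09, edgeR adjusted p = 0.999). Dll4 was at 22.2, 10.4 and 16.9 CPM in the knockout, around the wild-type pair at 23.1 and 16.3 (-0.25 ± 0.33, adjusted p = 0.999). Dll1, Dll3 and Jag2 overlapped between genotypes as well. None of the 52 other pathway genes passed without the block. With it Egfl7 was lower (-0.51 ± 0.10, adjusted p = 0.00458).

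In motor neurons the same test called 0.012% of genes and none of the members, whose log2 fold changes ran from -0.18 to 0.20. Plxnd1 did not pass in motor neurons either, so the same limit holds for members that did not pass. Jag2 was at 95.4, 105 and 80.3 CPM in the wild type and at 121, 121 and 70.7 CPM in the knockout (0.15 ± 0.20, edgeR adjusted p = 1). Dll1, at 59.5 to 60.8 against 50.9 to 67.9 CPM, was centred near 0 (-0.03 ± 0.11, adjusted p = 1). Dll3 was nearest to a change (0.20 ± 0.10, unadjusted p = 0.0815 by edgeR). Without batch 1 of the knockout, the library with liver markers, 0 of the 9 members passed as well. The test of whether the knockout effect differed between the cell types called 0% of genes and no member, at an edgeR adjusted p of 1 for each of the 9 (352 genes had an unadjusted p under 0.05, and DESeq2 called 1).

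The third comparison set endothelial cells of the cord parenchyma against those of the meninges. Of the 9 members, 8 were higher in the cord and Notch2 was lower, against 47.8% of all genes called (24.8% higher and 23% lower). Dll1, Dll3, Notch4 and Dll4 differed most. The median log2 fold change over the members was 1.78, beside 0.01 for all genes tested.

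**Figure D4:**
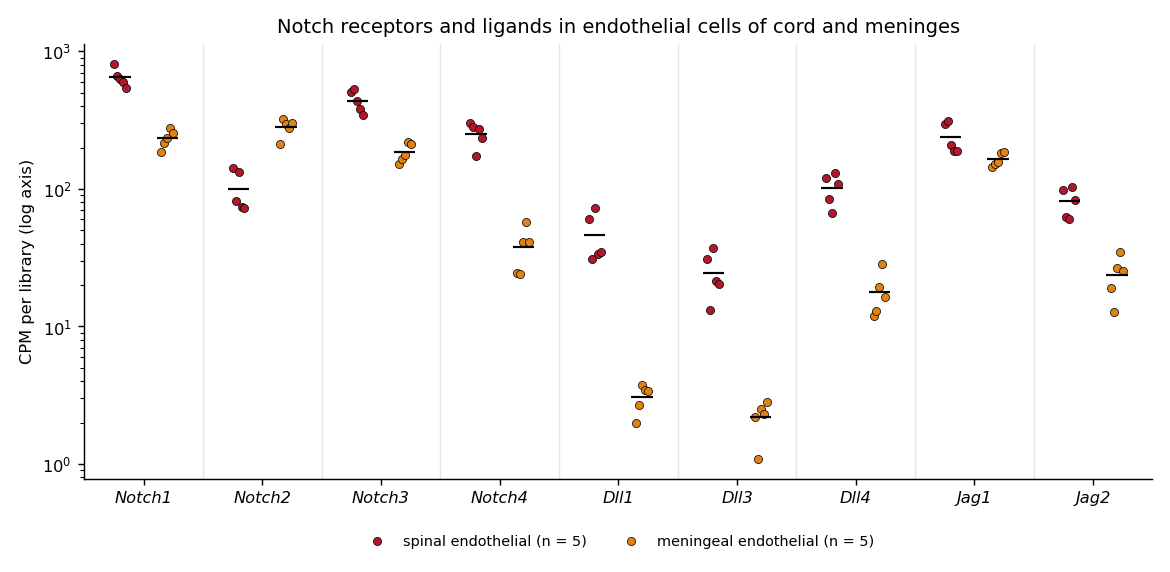
CPM of each member in the 5 spinal and 5 meningeal endothelial libraries, on a log axis, with horizontal lines at the group means. The red spinal points lie above the orange meningeal points for 8 members and under them for Notch2, and the gap is narrowest for Jag1. The share of all genes with regions apart was not counted, and 47.8% were called in edgeR.

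Notch4 was at 302, 280.5, 173, 271 and 235 CPM in spinal batches 1 to 5. The meningeal libraries of the same batches were at 24.5, 23.9, 41.2, 57.7 and 41.5 CPM. The lowest spinal library lay far above the highest meningeal one, and the log2 fold change was 2.74 ± 0.25 (SE, edgeR adjusted p = 2.7e-06).

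Notch1 stood at 813, 659.9, 627, 599 and 541 CPM in spinal libraries. In meningeal libraries it was at 185, 217, 234.5, 278.5 and 256 CPM. The groups were apart (1.47 ± 0.15, edgeR adjusted p = 5.2e-06). Notch3 was at 503, 530.0, 433, 381 and 346 CPM against 152, 166, 177, 219 and 214 CPM, and again the groups were apart (1.24 ± 0.15, adjusted p = 2.6e-05). Beside it, 7 pericyte and smooth muscle markers summed to 3184 to 8541 CPM in spinal and 1203 to 1618 CPM in meningeal libraries. Of these, 5 were higher in the cord, Abcc9 by 3.22 ± 0.28, and the contractile genes Acta2 (-4.80 ± 0.24) and Tagln (-2.78 ± 0.13) were lower. The part of mural cells in the Notch3 difference was not tested.

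Notch2 was the only member with less RNA in the cord. It was at 141, 81.6, 132, 73.4 and 73.0 CPM in spinal libraries and at 213, 323, 294, 276 and 302 CPM in meningeal ones, with no overlap (-1.49 ± 0.21, edgeR adjusted p = 8.2e-05). It was lower in 5 of 5 batches, by 0.59 to 2.05 on the log2 scale, and its share of the receptor sum per kilobase was 5.57 ± 1.6% (SD, n = 5) against 33.5 ± 3.95%. Fibroblast markers, led by Col1a1 in the cord and Col1a2 in the meninges, moved the same way, at 784.5 to 1418 CPM in spinal and 8535 to 11457 CPM in meningeal libraries. The part of fibroblasts in the Notch2 difference was not tested.

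Dll4 was at 119.8, 85.1, 66.4, 131 and 109 CPM in spinal libraries and at 11.8, 12.9, 19.3, 28.7 and 16.4 CPM in meningeal ones. No meningeal library reached a spinal one, and the log2 fold change was 2.52 ± 0.26 (edgeR adjusted p = 6.4e-06). Of 5 tip cell markers 4 were higher, such as Cxcr4 (3.83 ± 0.18) and Apln (2.59 ± 0.23), and the remaining marker was not called higher. The 5 summed to 196 to 296 CPM in spinal and 35.1 to 70.7 CPM in meningeal libraries. They were led by Cxcr4 in the cord and by Angpt2 in the meninges. The part of tip cells in the Dll4 difference was not tested. Arterial markers split, with Unc5b (2.56 ± 0.20), Gja4 (2.26 ± 0.22) and Sox17 (1.70 ± 0.28) higher and Bmx (-2.17 ± 0.39), Gja5 (-1.82 ± 0.29) and Efnb2 (-0.81 ± 0.12) lower.

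Jag2 was at 97.6, 62.3, 61.0, 103 and 83.5 CPM against 18.9, 12.6, 26.4, 34.6 and 25.5 CPM, also without overlap (1.78 ± 0.25, edgeR adjusted p = 7.2e-05). Pan-neuronal markers summed to 446 to 1015 CPM in spinal and 93.4 to 300 CPM in meningeal libraries. The part of neural cells in the Jag2 difference was not tested. Jag1 was at 296, 311, 209, 187 and 188 CPM in spinal libraries and at 145, 152, 156, 183 and 184 CPM in meningeal ones. The groups nearly touched, and the difference was the smallest of the 9 (0.54 ± 0.16, adjusted p = 0.0158). It rested on the ventral batches, where it was 0.86 ± 0.14 (adjusted p = 5.6e-04), while batches 4 and 5 gave 0.01 ± 0.17 (adjusted p = 0.975). It did not pass without meningeal batch 1 (0.46, adjusted p = 0.055) or 2 (0.47, adjusted p = 0.0506).

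Dll1 was at 60.4, 31.0, 72.7, 33.6 and 34.8 CPM in spinal libraries and at 1.98, 2.69, 3.73, 3.45 and 3.41 CPM in meningeal ones (3.93 ± 0.29, edgeR adjusted p = 5.9e-07). Dll3 was at 31.0, 13.1, 37.0, 21.5 and 20.5 CPM against 2.20, 1.09, 2.51, 2.31 and 2.83 CPM (3.48 ± 0.31, adjusted p = 2.2e-06). Both were the members with the widest gaps and the lowest meningeal levels, at 0.85 and 0.84 CPM per kb. Sums of interneuron and neural progenitor markers were also higher in the cord. The 6 interneuron markers, led in the cord by Pax2, summed to 69.5 to 188 CPM in spinal and 0.321 to 2.45 CPM in meningeal libraries. The 7 neural progenitor markers summed to 994 to 1599 against 489.5 to 569 CPM. They were led by Fabp7 in the cord and by Nes in the meninges, where 4 of the 7 were above a mean of 1 CPM. Spinal batches 1 and 3 held the most Dll1 and Dll3, and batch 2 held the least of both. Batch 2 also had the lowest interneuron sum, but its progenitor sum of 1076 CPM was above those of batches 4 and 5 (1001 and 994 CPM). The part of neural cells in these ligand differences was not tested.

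The regional libraries held erythroid markers, led by Hbb-y, at 4364 to 45654 CPM in spinal and 7101 to 53319 CPM in meningeal libraries. Macrophage markers summed to 694 to 1866 CPM and 890 to 1837 CPM. The part of these cells in the member differences was not tested. Endothelial markers themselves were unequal between the regions, 8 of 10 being higher in the cord, with sums of 1747 to 4006 CPM in spinal and 900.5 to 1896 CPM in meningeal libraries. Members were therefore also expressed per 1000 counts of the 10 endothelial markers. On this scale Dll4 was at 35.1, 31.9, 38.0, 32.7 and 28.4 in spinal libraries and at 13.1, 13.8, 17.2, 15.1 and 12.5 in meningeal ones. The groups stayed apart, and Dll4 was the member that varied least among spinal libraries (33.2 ± 3.61, SD, n = 5). Notch4 also stayed apart, at 61.2 to 105 against 25.6 to 36.6, and Notch2 stayed lower in the cord, at 18.3 to 75.8 against 145.6 to 346. The ranges of Notch1 (141 to 359 against 147 to 232), Notch3 (89.96 to 248 against 115 to 177), Jag1 (46.7 to 119 against 96.7 to 162) and Jag2 (21.7 to 34.9 against 13.5 to 23.5) overlapped.

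When the endothelial marker sum replaced the library size in edgeR, the median of all genes shifted to -1.30 and 81.9% of genes were called, 6.01% higher and 75.9% lower. Dll4 (1.21 ± 0.29, adjusted p = 5.3e-04), Notch4 (1.48 ± 0.29, adjusted p = 7.3e-05), Dll1 (2.79 ± 0.42) and Dll3 (2.32 ± 0.43) were higher in the cord and Notch2 lower (-2.72 ± 0.38). Notch1 (0.20 ± 0.31, adjusted p = 0.546), Jag2 (0.49 ± 0.30, adjusted p = 0.125) and Notch3 (-0.00 ± 0.32, adjusted p = 0.99) no longer passed, and Jag1 turned to lower (-0.74 ± 0.32, adjusted p = 0.0329).

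**Figure D5:**
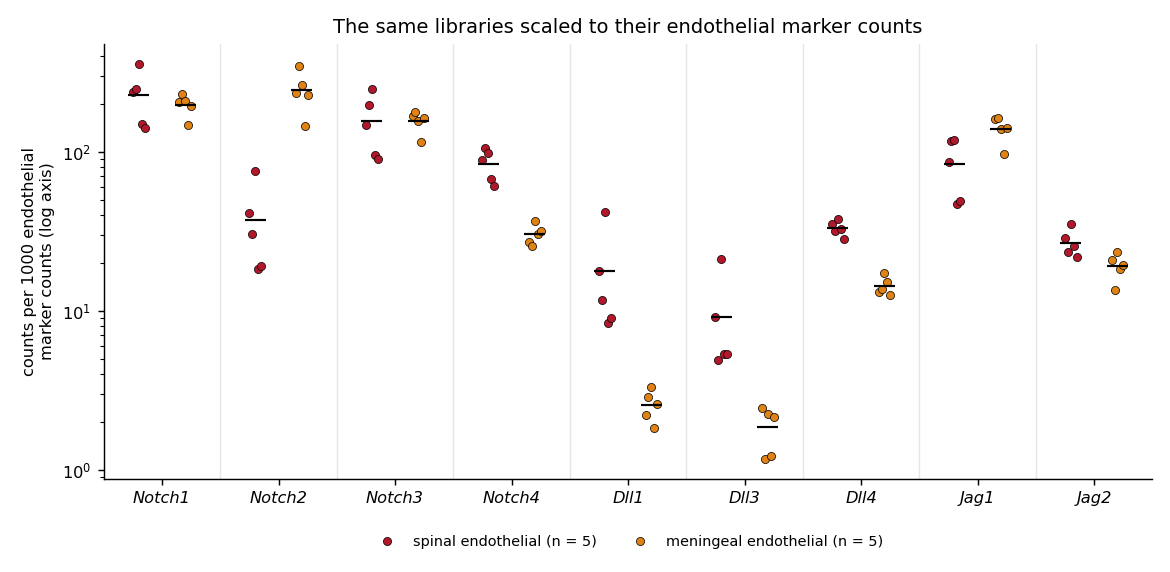
The 9 members in the 10 regional libraries as counts per 1000 counts of 10 endothelial markers, on a log axis, with lines at group means. Spinal and meningeal points stay apart for Notch4, Dll4, Dll1 and Dll3 (spinal higher) and Notch2 (spinal lower), and they overlap for Notch1, Notch3, Jag1 and Jag2. The share of all genes with regions apart on this scale was not counted, and 81.9% were called in edgeR.

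Notch4 and Dll4, the 2 members best known from endothelium, were higher in the cord on both scales and Notch2 was lower on both, so the promoters of these 3 are shown. RefSeq (GRCm38.p6) had a window for each of the 9 members, 10 windows in all because Dll1 has 2 starts. Each sequence is the 250 bases before the RefSeq start, 5′ to 3′ on the gene's strand, and capitals mark the GC box GGGCGG on either strand (CCGCCC is its reverse). Dll4 lies at chr2:119325784-119335962 and its window at chr2:119325534-119325783, plus strand. Notch4 lies at chr17:34564268-34588503 and its window at chr17:34564045-34564294, plus strand. Notch2 lies at chr3:98013538-98150361 and its window at chr3:98013288-98013537, plus strand.
Dll4: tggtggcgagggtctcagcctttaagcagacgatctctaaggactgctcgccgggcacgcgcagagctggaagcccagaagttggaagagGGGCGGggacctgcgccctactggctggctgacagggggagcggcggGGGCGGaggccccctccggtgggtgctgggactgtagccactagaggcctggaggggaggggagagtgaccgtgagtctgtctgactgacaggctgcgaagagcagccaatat
Notch4: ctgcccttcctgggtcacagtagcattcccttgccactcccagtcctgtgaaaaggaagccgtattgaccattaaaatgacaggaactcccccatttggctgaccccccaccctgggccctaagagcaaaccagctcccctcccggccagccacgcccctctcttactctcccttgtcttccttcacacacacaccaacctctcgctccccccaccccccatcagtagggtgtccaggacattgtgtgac
Notch2: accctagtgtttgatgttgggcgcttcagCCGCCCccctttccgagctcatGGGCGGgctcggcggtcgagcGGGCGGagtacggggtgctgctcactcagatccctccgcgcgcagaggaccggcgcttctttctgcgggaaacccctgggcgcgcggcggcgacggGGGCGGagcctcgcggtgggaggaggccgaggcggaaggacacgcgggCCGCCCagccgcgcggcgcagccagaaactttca
Dll4 had 2 GC boxes and 14 CpG pairs in a window of 65.6% GC, Notch4 had 0 GC boxes and 4 CpG pairs at 58.4% GC, and Notch2 had 5 GC boxes and 34 CpG pairs at 72% GC. Over 32851 windows the medians were 6 CpG pairs and 52.4% GC, and 32.7% of windows held a GC box. The letters TGGGAA of the RBPJ core, searched on both strands, were in 0 of the 10 member windows and in 21.6% of all windows. The Sox core ACAATG, found in 10.7% of windows, was in the windows of Notch4, Jag1 and the second Dll1 start. A match of letters is a description of the window and was not tied to binding.

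Among the 52 other pathway genes, 23 were higher in the cord, 7 were lower and 22 did not pass, beside the 47.8% of all genes called. Of 6 target genes, 3 were higher, namely Hes5 (4.77 ± 0.32, edgeR adjusted p = 3.1e-07), Hey1 (3.02 ± 0.14, adjusted p = 6.4e-08) and Heyl (1.12 ± 0.18). Hey1, a target in arterial endothelium, was at 70.3 to 89.6 CPM in spinal and 7.5 to 12.1 CPM in meningeal libraries, and per 1000 endothelial marker counts it was at 20.0 to 40.2 against 5.75 to 11.9. Hes5 is a target of neural progenitors, and its 22.9 to 50.7 CPM against 0.834 to 2.45 CPM lay beside the neural markers given above. Hes1 (0.10 ± 0.24) and Hey2 (0.31 ± 0.21) did not pass.

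The feedback inhibitor Nrarp was at 212 to 305 CPM in spinal and 29.0 to 62.6 CPM in meningeal libraries (2.31 ± 0.19, edgeR adjusted p = 1.4e-06). Of the 12 inhibitors and turnover genes, 6 were higher, the others being Dtx4 (1.76 ± 0.14), Fbxw7 (0.63 ± 0.12), Spen (0.61 ± 0.14), Dtx3 (0.49 ± 0.16) and Numb (0.47 ± 0.12), and Numbl (-0.68 ± 0.15), Dtx2 (-0.43 ± 0.11) and Hdac1 (-0.41 ± 0.11) were lower. The fringe genes Lfng (1.59 ± 0.21) and Mfng (1.22 ± 0.24) and Eogt (1.65 ± 0.16) were higher, while Gxylt2 (-2.53 ± 0.15), Pofut1 (-0.52 ± 0.10) and Gxylt1 (-0.49 ± 0.15) were lower, so the 8 glycosylation genes split 3 and 3. Cleavage genes Adam10 (0.67 ± 0.11), Furin (0.45 ± 0.17) and Ncstn (0.41 ± 0.11) were higher, as was Mib1 (0.49 ± 0.13), which ubiquitinates ligands. In the nuclear complex Kat2b (0.85 ± 0.16), Maml3 (0.80 ± 0.11), Maml2 (0.59 ± 0.14) and Ep300 (0.32 ± 0.12) were higher and Rbpj lower (-0.27 ± 0.09, adjusted p = 0.0333). Of the ligand-like proteins, Dner (5.37 ± 0.32), Dlk2 (4.14 ± 0.43) and Dlk1 (0.41 ± 0.16) were higher. Dner and Dlk2 were the genes of this list that were lower in endothelial than in motor neuron libraries. Pan-neuronal markers summed to 446 to 1015 CPM in spinal and 93.4 to 300 CPM in meningeal libraries, and the part of neural cells in these differences was not tested.

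Per kilobase, the order of the members differed between the regions. Spinal libraries were led by Notch1 at 68.3 CPM per kb and Notch3 at 54.7, followed by Jag1 at 42.5, Notch4 at 38.3 and Dll4 at 27.3. Meningeal libraries were led by Jag1 at 29.2, Notch2 at 26.8, Notch1 at 24.7 and Notch3 at 23.1, with Notch4 at 5.73 and Dll4 at 4.76. Dll4 made up 25.3 ± 6.26% (SD, n = 5) of the ligand sum in the cord and 11.5 ± 2.67% in the meninges, Jag1 39.2 ± 8.44% and 73.1 ± 5.02%. Fibroblast markers summed to 784.5 to 1418 CPM in spinal and 8535 to 11457 CPM in meningeal libraries. The part of fibroblasts in these shares was not tested. The ligand sum was 0.56 to 0.676 of the receptor sum in spinal and 0.438 to 0.546 in meningeal libraries.

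The ventral and whole-cord batches were compared through their regional differences, where batch and dissection cannot be told apart. The spinal against meningeal log2 fold change of all 9 members was lower in batches 4 and 5, which for Notch2 meant a wider deficit in the cord (-2.0 ± 0.26 beside -1.21 ± 0.21) and for the other 8 a smaller excess (log2 differences of -1.0 to -0.25, median -0.79, beside -0.06 for all genes tested), but none passed, and 0.547% of genes did (0.408% higher and 0.14% lower). Notch3 (-0.85 ± 0.18, edgeR adjusted p = 0.0582) and Jag1 (-0.85 ± 0.22, adjusted p = 0.0806) came nearest. Within either set of batches alone, Notch4, Dll4, Dll1, Dll3, Jag2, Notch1 and Notch3 passed as higher in the cord and Notch2 as lower, beside 51.5% of genes called in batches 1 to 3 and 29.1% in batches 4 and 5. Dll4, for example, differed by 2.63 ± 0.28 in batches 1 to 3 and by 2.39 ± 0.34 in batches 4 and 5.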

How the data were processed

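Polyadenylated RNA of 22 sorted pools was counted per gene. The deposited values are raw counts, made by the authors with featureCounts 1.6.4 on exons of GENCODE M22 (mm10), per the file headers. The knockout series was counted without strand as single reads and the regional series with strand option 2 as pairs, so levels were not compared between them. Exon lengths are those deposited with the counts. Trimmomatic 0.39, STAR 2.5.3a and DESeq2 are listed per the submitters' processing notes. Libraries held 15685784 to 27035395 counts. One duplicated file was left out, so 21 libraries were used.

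CPM are counts over the TMM-scaled library size. Each comparison used the quasi-likelihood F-test of edgeR 4.0.16 in R 4.3.3, with filterByExpr at a minimum count of 10 and Benjamini-Hochberg adjustment over all genes tested at 0.05. Cell types and the interaction were fitted on the 11 libraries of the knockout series, the knockout within each cell type, and the regions on 10 libraries. Standard errors are the fold change over the square root of F. The scripts were tested on simulated counts. Alternatives were DESeq2 1.42.0, RLE size factors, no filter, a filter at 5 CPM, the compared groups alone, batch as a block and each library left out. The block rests on the batch numbers in the labels. Deviations from group means of same-numbered libraries correlated at r = 0.629 and 0.706 in endothelial pairs, 0.43, 0.556 and 0.433 in motor neuron pairs, and -0.387 to 0.398 in regional pairs. Contrasts within ventral or whole-cord batches and scaling to endothelial markers were added after the data were seen. Libraries are pools of embryos, and nothing states that batches were separate litters, so the p-values speak only of library-to-library spread, which may be technical. The members, the 7 pathway lists and the 16 marker lists were chosen with earlier results of these data known. Genes were named by a rule: all members, Plxnd1, all pathway genes passing where a list has up to 6 in a direction and otherwise the 4 with the largest changes, and the highest gene of a marker list. Some genes that the rule would name are not reported here. Other marker genes, A930024N18Rik, and pathway genes that did not pass were chosen after their values were seen.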

Additional observations from a re-analysis of the deposited data

How the results depend on the processing

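Of the 153 member values that alternatives gave between wild-type cell types and the 153 between knockout cell types, 144 and 145 stayed on the same side of the threshold with the same sign, and none changed sign. Between spinal and meningeal cells 155 of 162 did. Depth limits little here, since the lowest mean of a member was far above 0.191 CPM, the level 3 counts give in the shallowest library.

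Endothelial knockout: edgeR called 0 of all genes, DESeq2 30, no filter 2, and the replicate block 180 with 2 members (Notch1 and Notch3) and 1 other pathway gene. Leaving out a library gave 0 to 1. With the block Notch4 was 0.04 and Dll3 0.40. Without 1 library Notch2 ran from -0.04 to 0.38, Notch4 from -0.53 to 0.08, Dll1 from -0.51 to 1.06, Dll3 from -0.74 to 1.3 and Dll4 from -0.53 to 0.03.

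Motor neuron knockout: 2 genes were called, 4 with DESeq2, 4 with no filter, 0 at the 5 CPM filter, 6 with the replicate block and 0 to 1 without 1 library. Notch1 was 0.00 with the block. Without 1 library Notch1 ran from -0.36 to 0.18, Notch2 from -0.23 to 0.03, Notch3 from -0.1 to 0.32, Notch4 from -0.01 to 0.1, Dll1 from -0.16 to 0.06 and Dll4 from -0.03 to 0.27. Interaction: DESeq2 called 1 gene, and leaving out a library 0 to 1. There Notch4 ran from -0.59 to 0.02, Dll1 from -0.49 to 1.09, Dll3 from -0.96 to 1.09 and Jag1 from -0.1 to 0.16.

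Regions: scaling to endothelial markers called 13283 genes against 7755, with Notch3 at -0.00 and Jag1 at -0.74, and batches 4 and 5 alone called 19 pathway genes against 30. Beyond Notch1 and Notch3 in the endothelial knockout and Dll3 between wild-type cell types, the replicate block changed the call of no member. Dissection: 98 genes were called, 1210 with DESeq2, 305 with RLE, 1780 with no filter, 236 at 5 CPM, 4 with the block and 0 to 1190 without 1 library, the highest without spinal batch 2. Members called were 0, 2 with DESeq2, 5 with no filter and 0 to 3 without 1 library. Pathway genes were 0, 3 with DESeq2, 4 with no filter and 0 to 1 without 1 library, and Dll4 ran from -0.57 to 0.21. Of 243 CPM levels 1 moved beyond its SD, Dll1 in wild-type motor neurons at 58.5 over the raw total. The cause was not tested.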

Other observations

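Across the 10 regional libraries, with levels centred within spinal and within meningeal cells, the genes of most similar pattern among 12099 were named for each member as a description. The libraries share depth and cell makeup, and ventral and whole-cord batches were not centred apart, so no p is given. For Dll4 they were Sema7a (r = 0.986), Pdgfb (0.972) and Plxnd1 (0.971), the gene deleted in the knockout series. For Notch4 they were Zbtb7a (0.96), Mansc1 (0.954) and Fbxo42 (0.945), and for Notch1 Fgfr1 (0.972), Bcl9l (0.962) and Ift172 (0.952). Notch2 was nearest to Zfpm2 (0.983), Wdr60 (0.977) and Cdk5rap2 (0.972), and Notch3 to Dnmt3a (0.97), Shld2 (0.961) and Dcp1a (0.961). Jag1 was nearest to Zcchc24 (0.982), Mrc2 (0.971) and Colec12 (0.964), Jag2 to Tbx1 (0.989), Shroom1 (0.98) and Kif26a (0.965), Dll1 to 2310061I04Rik (0.981), Pfas (0.974) and Rara (0.972), and Dll3 to Fam222a (0.975), Zfp503 (0.959) and Acss1 (0.957).

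Among the members themselves, Dll4 varied most like Jag2 (r = 0.884) and Notch4 (0.881), Notch3 most like Jag1 (0.918), and Notch2 most like Dll1 (0.878), over the same 10 libraries. Dll4 and Notch2 showed little correlation (r = -0.116).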
